A study of Homo sapiens with 6 samples.

Results

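The 45 genes described here act in DNA repair and in the checkpoint that answers DNA damage, and all are read in a cell line after knockdown of the transcription factor FOXA1. They were chosen by symbol from the 61859 genes of the table, and each symbol matched a row. By pathway they comprise 10 Fanconi anaemia genes, 15 genes of homologous recombination, 3 of mismatch repair, 4 of end joining, 6 of excision repair and 7 of the damage checkpoint. OSC19SSZR is a sulfasalazine-resistant line of oral squamous cell carcinoma, and sulfasalazine is an inhibitor of the cystine transporter xCT. The cells were transfected either with FOXA1 siRNA (n = 3) or with control siRNA (n = 3) by a lipid reagent, and total RNA was taken at 48 h and sequenced. All samples come from this 1 resistant line, so nothing here shows whether parental cells would behave alike. The labels do not say whether replicates were separate cultures, so p-values measure the spread between these samples only, which may be technical.

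Cells mend broken or altered DNA by several routes. The Fanconi anaemia proteins detect and unhook crosslinks between DNA strands, homologous recombination copies the lost stretch from the sister chromatid, and end joining seals breaks directly. Mismatch repair corrects copying errors, excision repair removes damaged bases or bulky lesions, and the checkpoint kinases ATM and ATR hold the cell cycle while repair proceeds. Recombination and the Fanconi pathway work mainly during and after DNA replication, and transcription of many of their genes is known to peak as cells enter S phase under the E2F factors.

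Promoter sequence was available from RefSeq (GRCh38.p14) for 40 of the 45 genes, as the 250 bases before to 50 bases after an annotated start. Only the first start listed for each symbol was used, and other starts of a gene were not searched. Some windows lay inside the gene model, as for RAD51B (window chr14:67823291-67823590, gene from 67819779, plus strand) and ERCC1 (window chr19:45451498-45451797, gene to 45478828, minus strand). FANCI, XRCC5, NBN, PRKDC and RAD54B were not analysed here for sequence. Both strands were searched for the E2F words TTTCCCGC, TTTCGCGC, TTTGCCGC and TTTGGCGC, and for the forkhead words TGTTTAC and TGTTTGC. The 7 promoters below are among those that hold an E2F word in the part from 120 bases before to 30 bases after the start, and they belong to 5 genes that rose with FOXA1 siRNA (XRCC2, EXO1, FANCD2, MSH6 and TOPBP1), 1 that fell (PMS2) and 1 that did not pass (MSH3). They are printed 5′ to 3′ on the strand of the gene, with the E2F word, or its reverse complement, in capitals. Their positions are chr7:152676112-152676261 (minus strand) for XRCC2, chr1:241848084-241848233 (plus) for EXO1, chr3:10026317-10026466 (plus) for FANCD2, chr2:47783025-47783174 (plus) for MSH6, chr3:133661912-133662061 (minus) for TOPBP1, chr5:80654532-80654681 (plus) for MSH3 and chr7:6009077-6009226 (minus) for PMS2.
XRCC2: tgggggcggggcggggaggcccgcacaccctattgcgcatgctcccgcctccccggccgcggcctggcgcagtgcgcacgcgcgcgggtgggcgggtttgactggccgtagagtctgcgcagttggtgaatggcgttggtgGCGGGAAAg
EXO1: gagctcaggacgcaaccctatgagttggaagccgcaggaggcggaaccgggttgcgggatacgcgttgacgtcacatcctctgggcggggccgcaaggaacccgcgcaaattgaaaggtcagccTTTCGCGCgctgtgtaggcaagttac
FANCD2: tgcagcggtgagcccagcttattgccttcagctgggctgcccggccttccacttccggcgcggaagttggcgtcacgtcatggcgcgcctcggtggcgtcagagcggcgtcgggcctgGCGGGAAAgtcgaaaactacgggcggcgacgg
MSH6: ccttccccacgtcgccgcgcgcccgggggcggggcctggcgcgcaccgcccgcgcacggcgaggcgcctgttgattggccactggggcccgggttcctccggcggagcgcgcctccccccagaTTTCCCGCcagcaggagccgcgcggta
TOPBP1: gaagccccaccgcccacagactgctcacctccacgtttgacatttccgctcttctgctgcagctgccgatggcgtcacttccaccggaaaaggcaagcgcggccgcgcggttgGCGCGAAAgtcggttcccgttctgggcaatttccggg
MSH3: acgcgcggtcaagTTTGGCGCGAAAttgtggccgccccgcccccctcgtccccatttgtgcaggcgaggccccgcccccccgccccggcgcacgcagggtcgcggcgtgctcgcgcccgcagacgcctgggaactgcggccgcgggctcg
PMS2: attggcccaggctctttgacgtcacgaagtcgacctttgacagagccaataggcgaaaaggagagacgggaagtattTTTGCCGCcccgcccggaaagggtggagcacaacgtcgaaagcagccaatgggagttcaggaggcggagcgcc

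In MSH3 the capitals cover 2 words that overlap, 1 on each strand. Over the whole window, 11 of 40 promoters (27.5%) held an E2F word, against 600 of the 11346 promoters of all genes tested (5.3%) and 17 of the 26 promoters of S phase genes (65.4%). All 3 mismatch repair promoters held one, as did 3 of 9 Fanconi promoters (FANCA, FANCC and FANCD2) and 2 of 14 recombination promoters (XRCC2 and EXO1). By response, the word lay in 8 of the 27 promoters of genes that rose and in 3 of the 13 others, and the median log2 fold change was 0.54 for the 11 genes with it and 0.45 for the 29 without it. A forkhead word lay in 0 of the 40 promoters, against 5.0% for all genes tested. A match of this kind is a description of the letters and not of a bound site. A window without a word does not show that the gene's other starts lack one.

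FOXA1 itself had 247, 192 and 189 normalized counts with FOXA1 siRNA, against 1477, 1378 and 1459 with control siRNA. Its log2 fold change was -2.79 ± 0.09 (SE; limma, Benjamini-Hochberg adjusted p = 3.32e-18), and the knockdown left 14.5% of the control level. The reads behind the libraries ranged from 16510125 to 25732569. All 10 squamous epithelial markers had a mean of at least 10 normalized counts, with KRT14 lowest at a mean of 38.8. Of these markers 5 rose, with SFN (2.20-fold) and KRT17 (2.01-fold) ahead, and TP63 (log2 fold change -0.40) and KRT5 (-0.18) fell. Their summed normalized counts were 72470 to 76771 with FOXA1 siRNA and 65141 to 68374 with control siRNA. The leukocyte markers reached a mean of at least 10 in 0 of 5 cases, fibroblast markers in 1 of 5 (COL1A1) and endothelial markers in 1 of 5 (CDH5). DCN, LUM and KDR had no reads. COL1A1 (mean 129) and CDH5 (mean 421) both stood above KRT14. The summed endothelial markers, nearly all CDH5, were at 278.7 to 302.8 normalized counts with FOXA1 siRNA and 541.9 to 573.5 with control siRNA, and the summed fibroblast markers at 92.5 to 135 with FOXA1 siRNA and 144 to 163 with control siRNA, and the part of these 3 marker lists in the results was not tested. KRT6A, a keratin of stressed epithelium, stood at 802 normalized counts in control siRNA replicate 3, against 50.4 and 38.3 in the other control samples, which sets that library apart for this gene. Without that library, 31 of the 45 genes rose and 5 fell by the test described below, as with it. In a bulk sample, a change in the share of cells that express a gene and a change in RNA per cell cannot be told apart.

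Most of the 45 genes were higher after FOXA1 knockdown. All 45 had a mean of at least 10 normalized counts and were tested among 18460 genes by limma on log2(normalized count + 1), with a Benjamini-Hochberg adjusted p under 0.05 as the threshold. In that test 31 rose, 5 fell (FANCF, RAD51B, PMS2, XPC and RAD50) and 9 did not pass (PALB2, RAD51D, MSH3, LIG4, XRCC1, ERCC1, XPA, ATM and NBN). Among all genes tested, 26.8% rose and 25.0% fell. The median log2 fold change of the 45 genes was 0.47, with a range from -0.64 to 1.20, against a median of 0.0039 for all genes tested. Among the 12752 genes with a mean of at least 100, a range of levels closer to that of these genes, the median was 0.05, 34.7% rose and 26.2% fell. A rise of at least 1.5-fold was called for 17 of the 45 genes, against 7.16% of all genes tested, and XRCC2 and EXO1 passed 2-fold. The 3 FOXA1 siRNA values lay above all 3 control siRNA values for 32 of the 45 genes and below them for 5, against 29.5% and 28.1% of all genes tested. PALB2 is the gene that separated without passing the test.

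**Figure D1:**
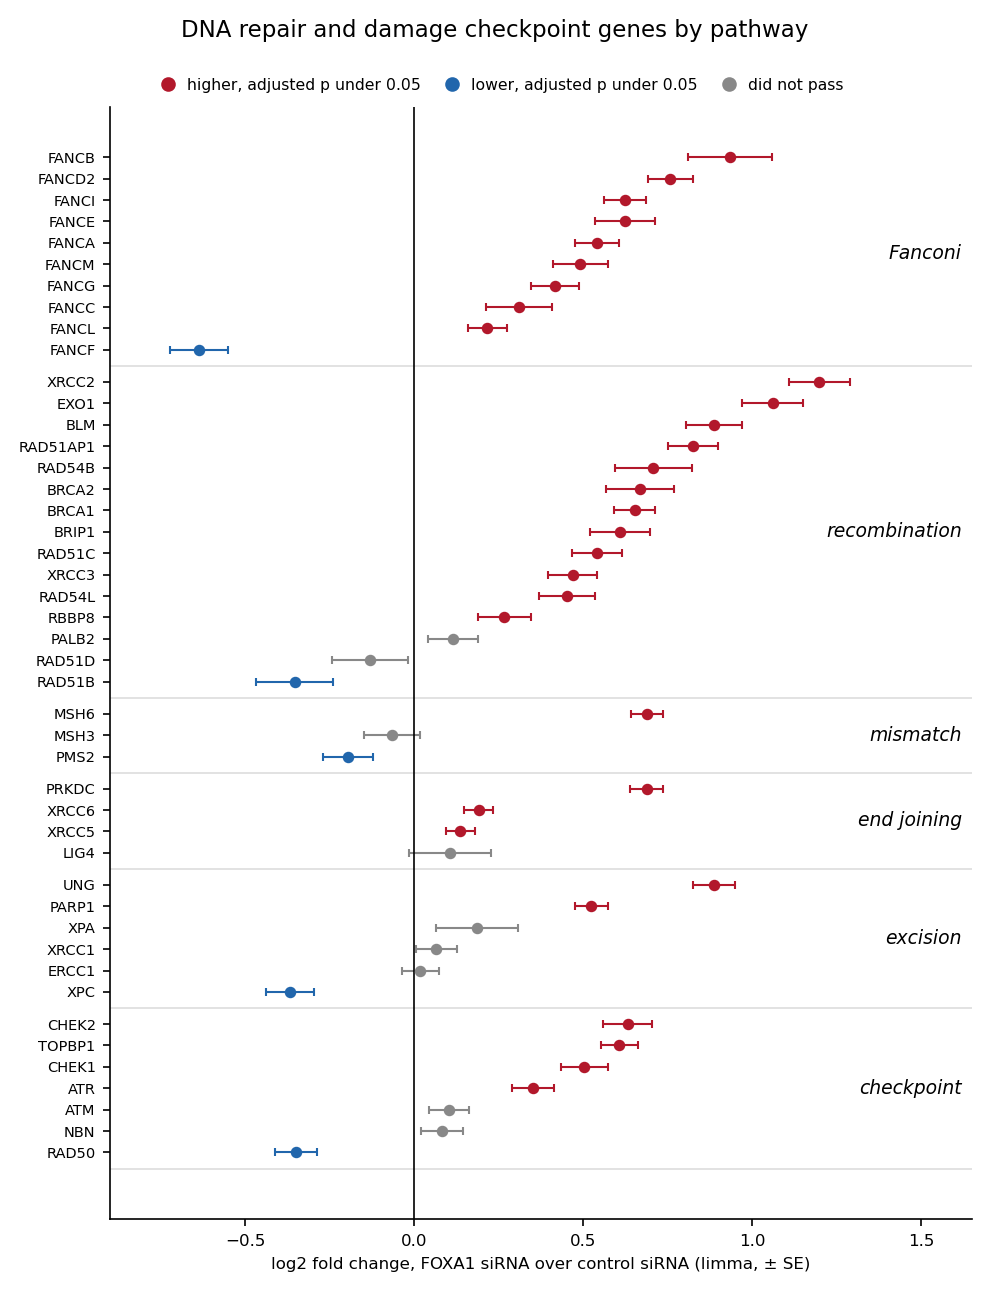
Log2 fold change of each of the 45 genes, FOXA1 siRNA over control siRNA, on the horizontal axis, with the SE from limma as bars and the genes grouped by pathway down the page. Points right of the line at 0 are higher with FOXA1 siRNA, and the 31 red points and 5 blue points passed the test; the Fanconi and recombination groups lie mostly to the right, between 0.22 and 1.20, with FANCF and RAD51B as the blue points on the left.

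Genes of DNA replication were also higher. Of 32 S phase genes, in a list written with earlier results of these data known, 31 rose (96.9%), 0 fell and CCNE1 did not pass. Of all genes tested, 26.8% rose and 25.0% fell. The median log2 fold change was 0.73 for the S phase genes and 0.0039 for all genes tested. DTL, which directs the CUL4 ubiquitin ligase to its targets, had a log2 fold change of 2.01 ± 0.07 (SE), and GINS2, a subunit of the replicative helicase, one of 1.44 ± 0.05. Their summed normalized counts were 88023, 90323 and 91203 with FOXA1 siRNA, against 49702, 53489 and 52515 with control siRNA, a ratio of 1.73. The sum over the 45 repair and checkpoint genes was 82147, 81820 and 84972 with FOXA1 siRNA, against 62867, 64740 and 64113 with control siRNA, a ratio of 1.30. The part of the S phase genes' shift in the rise of the repair genes was not tested.

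The scaling of the libraries set some of the weaker calls. When all libraries were scaled to equal totals, 26 of the 45 genes rose and 5 fell, while 3594 of all genes tested rose and 5967 fell, so that 37.6% of called genes were higher, compared with 51.8% as deposited. FANCC, FANCL, RBBP8, XRCC5 and XRCC6 were the members that lost their call under that scaling.

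In the Fanconi anaemia pathway, 9 of the 10 genes rose (90.0%) and FANCF alone fell (10.0%), against 26.8% and 25.0% of all genes tested. FANCB, a subunit of the core ubiquitin ligase complex, had the largest rise, with 205, 198 and 219 normalized counts with FOXA1 siRNA, against 104, 122 and 99.4 with control siRNA. Every knockdown value stood clear of the controls, with a 1.91-fold difference (log2 fold change 0.93 ± 0.12, SE; limma adjusted p = 4.09e-07). FANCD2, which the core complex marks with ubiquitin at a stalled fork, had 1163, 1081 and 1083 normalized counts with FOXA1 siRNA, against 625, 698 and 644 with control siRNA. The groups were well apart, with a log2 fold change of 0.76 ± 0.07 (SE; limma adjusted p = 1.87e-10). FANCI, the clamp partner of FANCD2, averaged 2168 ± 53.4 normalized counts with FOXA1 siRNA and 1411 ± 145 with control siRNA (SD, n = 3 each), a log2 fold change of 0.62. Both clamp genes rose, and the ratio of FANCI to FANCD2 was 1.96 ± 0.12 with FOXA1 siRNA and 2.15 ± 0.12 with control siRNA (SD, n = 3 each), with groups that overlapped.

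FANCF, an adaptor that holds parts of the core complex together, went the other way. It had 271, 270 and 274 normalized counts with FOXA1 siRNA, against 436, 435 and 400 with control siRNA. The knockdown samples were nearly equal to each other and all lay below the controls, with a log2 fold change of -0.64 ± 0.09 (SE; limma adjusted p = 4.29e-07), the largest fall among the 45 genes. FANCF is an intronless gene on chromosome 11 (22622890 to 22625841, minus strand, GRCh38), and 11.3% of its exon bases are shared with GAS2 on the opposite strand, which was also lower (log2 fold change -0.38, limma adjusted p = 0.0467) at a mean of 97.2 normalized counts. The other core complex genes rose, with log2 fold changes of 0.62 for FANCE, 0.54 for FANCA, 0.42 for FANCG, 0.31 for FANCC and 0.22 for FANCL, the ubiquitin ligase subunit. FANCM, the translocase that recruits the complex to DNA, rose by 0.49. FANCC and FANCL were the least firm of these: with libraries scaled to equal totals their log2 fold changes were 0.21 (limma adjusted p = 0.0748) and 0.12 (limma adjusted p = 0.0899). The call of FANCC was also lost without control siRNA replicate 1 (limma adjusted p = 0.0623) and without FOXA1 siRNA replicate 1 (limma adjusted p = 0.0514).

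**Figure D2:**
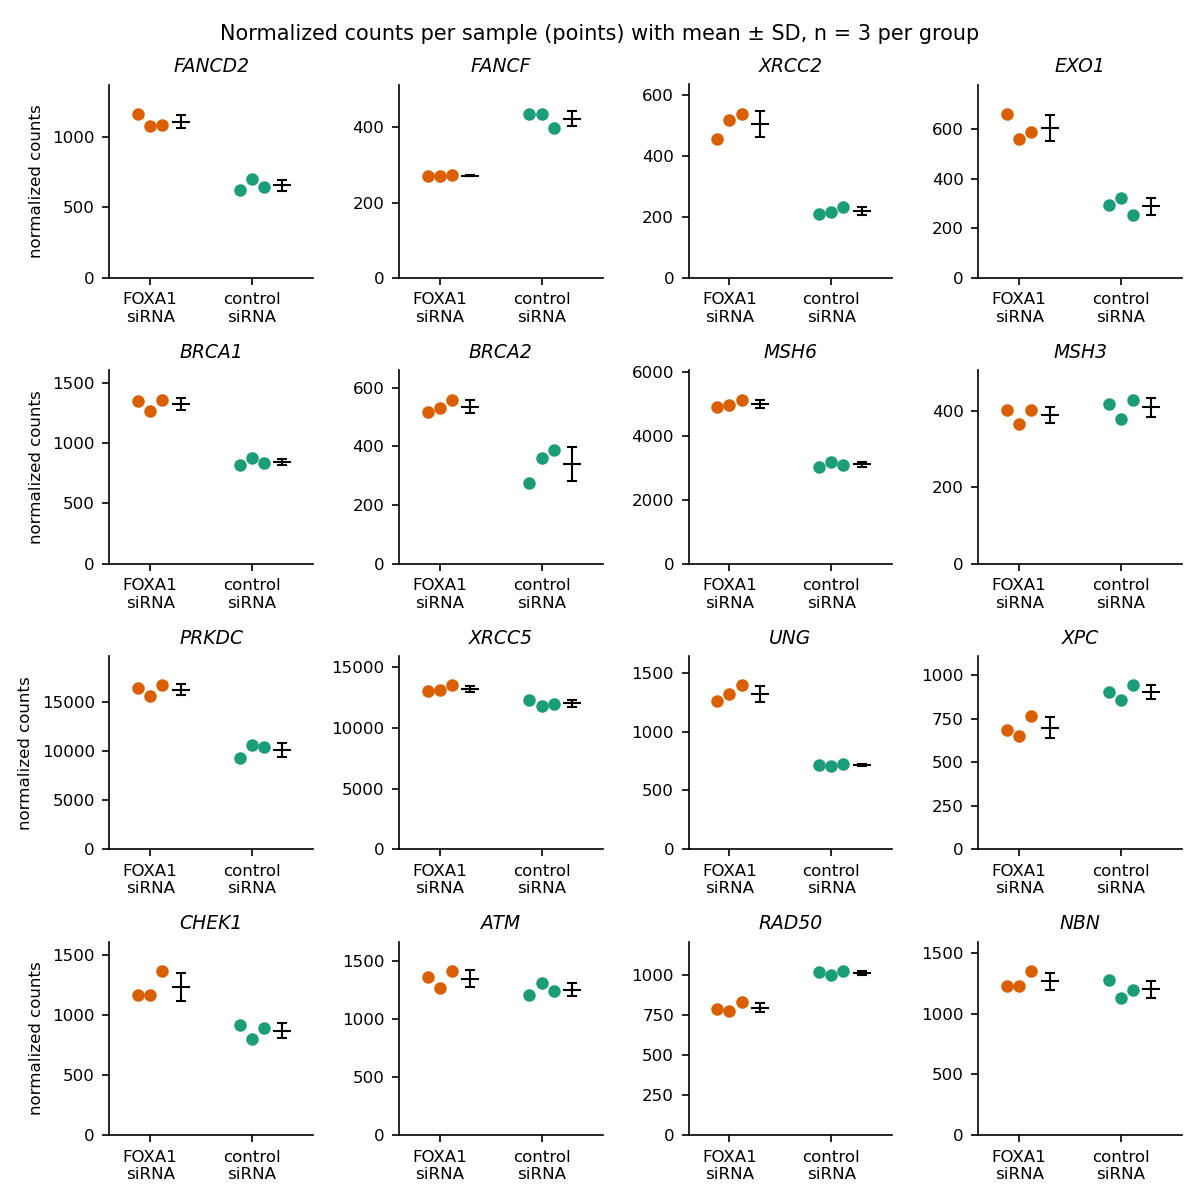
Normalized counts (vertical axes, each starting at 0) of 16 of the genes in each sample, with FOXA1 siRNA on the left and control siRNA on the right of each panel, and the mean ± SD (n = 3) as bars beside the points. FANCD2, XRCC2, EXO1, BRCA1, BRCA2, MSH6, PRKDC, XRCC5, UNG and CHEK1 are higher in all 3 FOXA1 siRNA samples, FANCF, XPC and RAD50 are lower in all 3, and MSH3, ATM and NBN overlap.

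Homologous recombination held the 2 largest rises. Of its 15 genes, 12 rose (80.0%), RAD51B fell (6.67%), and PALB2 and RAD51D did not pass. The shares over all genes tested were 26.8% higher and 25.0% lower. The median log2 fold change of the 15 genes was 0.61. XRCC2, which helps the recombinase filament form on single-stranded DNA, had 458, 520 and 538 normalized counts with FOXA1 siRNA, against 209, 217 and 232 with control siRNA. Its fold difference of 2.29 was the largest among the 45 genes (log2 fold change 1.20 ± 0.09, SE; limma adjusted p = 9.73e-12). EXO1, an exonuclease that resects broken ends and also serves mismatch repair, had 661, 561 and 588 normalized counts with FOXA1 siRNA, against 292, 323 and 254 with control siRNA. Again no control reached the knockdown samples, and the rise was 1.06 on the log2 scale (SE 0.09; limma adjusted p = 1.74e-10). BLM, the helicase lost in Bloom syndrome, which dissolves joint molecules, had 550, 559 and 612 normalized counts with FOXA1 siRNA, against 304, 294 and 332 with control siRNA. It rose 1.85-fold (log2 fold change 0.89 ± 0.08, SE; limma adjusted p = 5.71e-10). RBBP8, which encodes the resection factor CtIP and acts before EXO1 and BLM, rose by 0.27 on the log2 scale, and its call was lost with libraries scaled to equal totals (limma adjusted p = 0.0705).

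The breast cancer genes rose while their bridge did not pass. BRCA1, which promotes resection and recruits the recombination machinery, had 1352, 1272 and 1363 normalized counts with FOXA1 siRNA, against 820, 876 and 840 with control siRNA, a log2 fold change of 0.65 ± 0.06 (SE; limma adjusted p = 6.32e-10). BRCA2, which acts downstream of BRCA1 in recombination, had 518, 530 and 559 normalized counts with FOXA1 siRNA, against 275, 359 and 386 with control siRNA. Its controls were the more scattered group, with replicate 1 lowest, and the rise was 0.67 on the log2 scale (SE 0.10; limma adjusted p = 7.97e-06). PALB2, which bridges BRCA1 and BRCA2, had 505, 510 and 523 normalized counts with FOXA1 siRNA, against 473, 485 and 462 with control siRNA. These groups did not overlap, yet the log2 fold change of 0.11 ± 0.07 (SE) missed the threshold (limma adjusted p = 0.201). The ratio of BRCA1 to PALB2 was 2.59 ± 0.09 with FOXA1 siRNA and 1.79 ± 0.04 with control siRNA, and that of BRCA2 to PALB2 was 1.04 ± 0.02 with FOXA1 siRNA and 0.72 ± 0.13 with control siRNA (SD, n = 3 each). BRIP1, the helicase that binds BRCA1, rose by 0.61 on the log2 scale.

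XRCC2, XRCC3, RAD51B, RAD51C and RAD51D, which act together in recombination, did not move as a unit. XRCC2 (log2 fold change 1.20), RAD51C (0.54) and XRCC3 (0.47) rose. RAD51B, which acts in the same complex as RAD51C, had 157, 152 and 187 normalized counts with FOXA1 siRNA, against 205, 215 and 212 with control siRNA. It fell by 0.35 on the log2 scale (SE 0.11; limma adjusted p = 0.0107), with FOXA1 siRNA replicate 3 closest to the controls, and without FOXA1 siRNA replicate 2 the call was lost (-0.30, limma adjusted p = 0.0551). RAD51D averaged 179 ± 8.38 normalized counts with FOXA1 siRNA and 196 ± 17.2 with control siRNA (SD, n = 3 each), which did not pass (limma adjusted p = 0.342). Of the factors that work at strand exchange, RAD51AP1, which stimulates strand invasion, rose by 0.82, and the translocases RAD54B and RAD54L by 0.71 and 0.45 on the log2 scale.

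The 3 mismatch repair genes gave 3 different results. MSH6, whose protein recognises single mismatches, had 4917, 4964 and 5138 normalized counts with FOXA1 siRNA, against 3037, 3195 and 3091 with control siRNA. It rose by 0.69 on the log2 scale (SE 0.05; limma adjusted p = 1.28e-12), and the spread within each group was small beside the difference. MSH3, which recognises larger loops, had 402, 366 and 402 normalized counts with FOXA1 siRNA, against 418, 379 and 429 with control siRNA. Its groups overlapped and it did not pass (log2 fold change -0.07 ± 0.08, SE; limma adjusted p = 0.529). The ratio of MSH6 to MSH3 was 12.9 ± 0.67 with FOXA1 siRNA and 7.63 ± 0.68 with control siRNA (SD, n = 3 each). PMS2, an endonuclease that acts after recognition, had 575, 566 and 662 normalized counts with FOXA1 siRNA, against 674, 722 and 664 with control siRNA. FOXA1 siRNA replicate 3 lay just below the lowest control, and the fall of 0.20 on the log2 scale (SE 0.07; limma adjusted p = 0.0292) was lost without control siRNA replicate 2 (limma adjusted p = 0.133), without FOXA1 siRNA replicate 1 (limma adjusted p = 0.104) and without FOXA1 siRNA replicate 2 (limma adjusted p = 0.126). PMS2 has many near-identical pseudogenes, of which PMS2P1 averaged 371 and PMS2CL 302 normalized counts, so its reads may be split between copies and its value is uncertain.

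In end joining, 3 of the 4 genes rose (75.0%) and 0 fell, against 26.8% and 25.0% of all genes tested. The kinase subunit rose by 1.61-fold and the end-binding Ku subunits by 14.1% (XRCC6) and 9.87% (XRCC5). PRKDC, the DNA-dependent protein kinase, had 16452, 15668 and 16706 normalized counts with FOXA1 siRNA, against 9324, 10588 and 10440 with control siRNA. It rose by 0.69 on the log2 scale (SE 0.05; limma adjusted p = 2.73e-12), with no overlap. XRCC6, which encodes Ku70, had 11906, 12445 and 12832 normalized counts with FOXA1 siRNA, against 10867, 11040 and 10665 with control siRNA (log2 fold change 0.19 ± 0.04, SE; limma adjusted p = 0.000572). XRCC5, which encodes Ku80, had 13021, 13160 and 13501 normalized counts with FOXA1 siRNA, against 12344, 11795 and 11981 with control siRNA (log2 fold change 0.14 ± 0.04, SE; limma adjusted p = 0.00856). Both Ku genes thus stood only slightly above their controls, and the call of either was lost under other scalings. With libraries scaled to equal totals the log2 fold changes were 0.09 for XRCC6 (limma adjusted p = 0.0598) and 0.04 for XRCC5 (limma adjusted p = 0.443), and under quantile normalization 0.02 for XRCC6 and -0.001 for XRCC5. XRCC5 also lost its call without control siRNA replicate 2 (limma adjusted p = 0.0593). LIG4, the ligase that seals the ends, averaged 175 ± 22.9 normalized counts with FOXA1 siRNA and 162 ± 5.52 with control siRNA (SD, n = 3 each) and did not pass (limma adjusted p = 0.487).

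Ratios between partner genes within a library do not depend on the size factor of the library. The ratio of PRKDC to XRCC5 was 1.26, 1.19 and 1.24 with FOXA1 siRNA, against 0.755, 0.898 and 0.871 with control siRNA, and that of XRCC5 to XRCC6 was 1.09, 1.06 and 1.05 with FOXA1 siRNA, against 1.14, 1.07 and 1.12 with control siRNA. The ratio of kinase to Ku did not overlap between the groups, and the ratio of the Ku subunits did. Of 10 such ratios, chosen after the values were seen, 7 did not overlap, and each of these gave p = 0.1 in an exact two-sided permutation test (0.143 after Benjamini-Hochberg adjustment over the 10). That p is the smallest that 3 against 3 samples allow, so none of the ratios could pass 0.05.

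**Figure D3:**
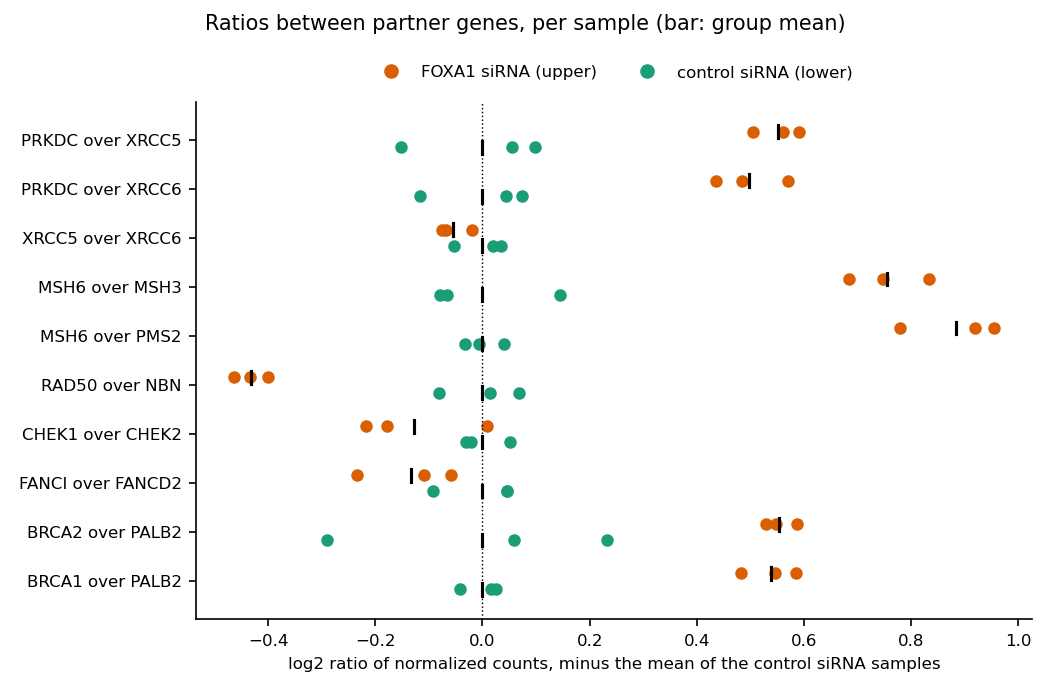
Log2 ratio of normalized counts between partner genes in each sample, relative to the mean of the control siRNA samples (horizontal axis), for 10 pairs down the page, with FOXA1 siRNA points above control siRNA points in each pair and bars at the group means. PRKDC over XRCC5, MSH6 over MSH3 and BRCA1 over PALB2 are shifted to the right by 0.55, 0.75 and 0.54, RAD50 over NBN to the left by 0.43, and XRCC5 over XRCC6, CHEK1 over CHEK2 and FANCI over FANCD2 overlap.

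In excision repair 2 of 6 genes rose (33.3%), 1 fell (16.7%) and 3 did not pass, and these shares lie near those of all genes tested (26.8% and 25.0%). UNG, which cuts uracil out of DNA, had 1257, 1316 and 1391 normalized counts with FOXA1 siRNA, against 718, 703 and 722 with control siRNA. The control values were very close together, and the rise was 1.85-fold (log2 fold change 0.89 ± 0.06, SE; limma adjusted p = 2.28e-12). PARP1, which senses single-strand breaks and builds poly(ADP-ribose), had 3649, 3658 and 3672 normalized counts with FOXA1 siRNA, against 2457, 2604 and 2576 with control siRNA (log2 fold change 0.52 ± 0.05, SE; limma adjusted p = 4.72e-10). XRCC1, the scaffold that PARP1 recruits, averaged 1124 ± 48.1 normalized counts with FOXA1 siRNA and 1075 ± 28.1 with control siRNA (SD, n = 3 each) and did not pass (limma adjusted p = 0.383). XPC, which finds bulky lesions, had 684, 650 and 767 normalized counts with FOXA1 siRNA, against 907, 861 and 943 with control siRNA, and fell by 0.37 on the log2 scale (SE 0.07; limma adjusted p = 7.4e-05). XPA, which verifies the damage, and ERCC1, part of the nuclease that cuts beside it, had log2 fold changes of 0.19 ± 0.12 and 0.02 ± 0.06 (SE), with limma adjusted p of 0.208 and 0.811. XPA passed as higher under quantile normalization (0.31, limma adjusted p = 0.037; range over its alternatives 0.037 to 0.567).

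Among the 7 checkpoint genes, ATR, TOPBP1, CHEK1 and CHEK2 rose (57.1%), RAD50 fell (14.3%), and ATM and NBN did not pass. Of all genes tested, 26.8% rose and 25.0% fell. ATR, the kinase that responds to exposed single-stranded DNA, had 1273, 1238 and 1402 normalized counts with FOXA1 siRNA, against 1002, 1021 and 1041 with control siRNA (log2 fold change 0.35 ± 0.06, SE; limma adjusted p = 2.18e-05). TOPBP1, which activates ATR, had 2084, 1956 and 2130 normalized counts with FOXA1 siRNA, against 1336, 1322 and 1394 with control siRNA, a log2 fold change of 0.61 ± 0.06 (SE; limma adjusted p = 3.86e-10). CHEK1, the kinase that ATR switches on, had 1168, 1170 and 1366 normalized counts with FOXA1 siRNA, against 921, 801 and 889 with control siRNA. All 3 genes separated the groups, and CHEK1 rose by 0.50 on the log2 scale (SE 0.07; limma adjusted p = 8.96e-07). ATM, the kinase that responds to double-strand breaks, had 1361, 1272 and 1413 normalized counts with FOXA1 siRNA, against 1211, 1312 and 1241 with control siRNA. These values overlapped and the log2 fold change of 0.10 ± 0.06 (SE) did not pass (limma adjusted p = 0.149). CHEK2, the kinase that ATM switches on, did rise, with 740, 761 and 760 normalized counts with FOXA1 siRNA, against 497, 455 and 508 with control siRNA (log2 fold change 0.63 ± 0.07, SE; limma adjusted p = 2.39e-08). Whether the log2 fold changes of ATR and ATM differ was not tested.

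RAD50 and NBN belong to the complex that detects broken ends and activates ATM, and they parted. RAD50, named because it fell, had 786, 771 and 828 normalized counts with FOXA1 siRNA, against 1019, 999 and 1022 with control siRNA. It fell by 0.35 on the log2 scale (SE 0.06; limma adjusted p = 3.07e-05), with no overlap. NBN, its regulatory partner, had 1225, 1230 and 1349 normalized counts with FOXA1 siRNA, against 1273, 1126 and 1196 with control siRNA, and did not pass (log2 fold change 0.08 ± 0.06, SE; limma adjusted p = 0.28). The ratio of RAD50 to NBN was 0.63 ± 0.01 with FOXA1 siRNA and 0.85 ± 0.04 with control siRNA (SD, n = 3 each). MRE11, the nuclease of the same complex and a companion gene outside the 45, was higher by 0.31 on the log2 scale (limma adjusted p = 0.000819). RAD50 shares 79.7% of its exon bases with the protein-coding gene model AC116366.3 on the same strand, which also fell (-0.29, limma adjusted p = 0.000163), so reads of the 2 could have been split by the counting.

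Per kilobase of the longest annotated transcript, the abundance of the 45 genes spanned a wide range. The Ku genes were highest, with XRCC6 at 4575 normalized counts per kilobase with FOXA1 siRNA and 4008 with control siRNA, and XRCC5 at 3517 with FOXA1 siRNA and 3201 with control siRNA. PRKDC followed at 1205 with FOXA1 siRNA and 749 with control siRNA. RAD51D was lowest, at 17.9 with FOXA1 siRNA and 19.7 with control siRNA, and BRCA2 came next among the controls at 44.7 with FOXA1 siRNA and 28.4 with control siRNA. The place of RAD51D depends on the length used, as its longest annotated transcript has 9.988 kilobases. RAD51B, with a mean of 187.9 normalized counts against 187.66 for RAD51D, was divided by 2.596 kilobases.

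Companion genes of the same pathways, 128 in lists written with earlier results of these data known, were measured alongside. Of the 127 that were tested (RAD51AP2 was too low), 52 rose, 21 fell and 54 did not pass, with a median log2 fold change of 0.12. These are 40.9% higher and 16.5% lower, against 26.8% and 25.0% of all genes tested. With libraries scaled to equal totals, 43 rose and 33 fell, while 3594 of all 18460 genes tested rose and 5967 fell. In recombination 17 of 29 rose and 2 fell, with RMI2 (1.36), a partner of BLM, and MND1 (1.15), a meiotic recombination factor, as the largest rises, and SWSAP1 (-0.34) and EME2 (-0.16) as the genes that fell. In the checkpoint 13 of 25 rose and 2 fell. WEE1, the kinase that restrains CDK1, rose 3.06-fold (log2 fold change 1.61 ± 0.07, SE), CDC25A rose by 0.93, and ETAA1, an ATR activator, and TP53BP1, which steers breaks towards end joining, fell by 0.41 and 0.40 on the log2 scale. In the Fanconi pathway 6 of 13 rose and 4 fell, with RFWD3 (0.83) and UBE2T (0.45), the ubiquitin-conjugating enzyme of the pathway, higher and FAAP24 (-0.61) and FAAP20 (-0.47), accessory subunits of the core complex, lower.

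The remaining companion lists were close to balanced or small. In mismatch repair 3 of 4 rose, among them PMS1 (0.19), and 0 fell. In end joining 2 of 11 rose (18.2%), NHEJ1 (0.61) and APTX (0.45), and 3 fell (27.3%), among them POLL (-0.38) and XRCC4 (-0.27), the partner of LIG4. In excision repair 9 of 34 rose (26.5%) and 7 fell (20.6%), shares near those of all genes tested (26.8% and 25.0%). FEN1, the flap endonuclease, rose by 0.85 and the glycosylase NEIL3 by 0.62 on the log2 scale. TDG, a glycosylase that removes thymine from mismatches with guanine, had 200, 184 and 191 normalized counts with FOXA1 siRNA, against 529, 545 and 513 with control siRNA (log2 fold change -1.46 ± 0.09, SE; limma adjusted p = 8.32e-14). RAD23B, which stabilises XPC, had 2190, 2290 and 2233 normalized counts with FOXA1 siRNA, against 5167, 4966 and 4840 with control siRNA (log2 fold change -1.16 ± 0.05, SE; limma adjusted p = 4.26e-17). Both fell further than any of the 45 genes. In translesion synthesis 2 of 11 rose (18.2%), HLTF (0.57) and RAD18 (0.40), and 3 fell (27.3%), among them the polymerase genes POLI (-0.55) and REV3L (-0.29). The end joining and translesion lists hold only 11 genes each. Whether their shares differ from those of all genes tested (26.8% higher and 25.0% lower) was not tested.

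**Figure D4:**
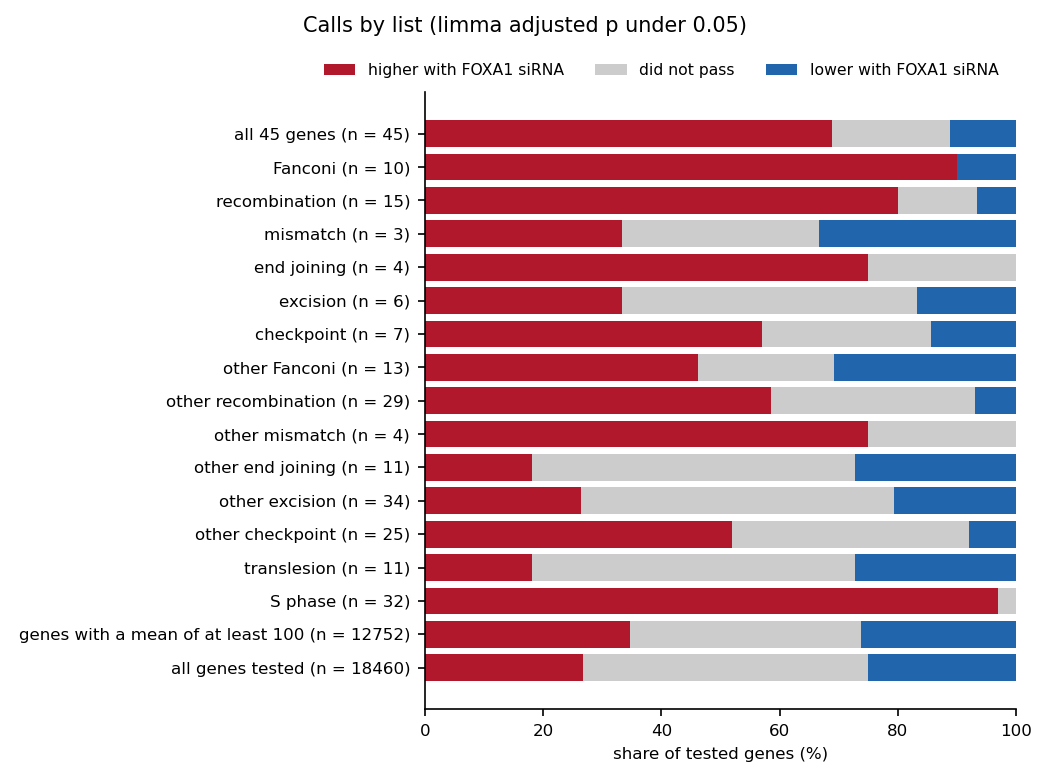
Share of tested genes (horizontal axis, percent) that were higher with FOXA1 siRNA (red), did not pass (grey) or were lower with FOXA1 siRNA (blue) at a limma adjusted p under 0.05, for the 45 genes, their pathways, the companion lists, the S phase list and all genes tested. The red share is 90.0% for Fanconi, 80.0% for recombination and 96.9% for S phase, against 26.8% for all genes tested.

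Overlapping gene models limit some of the values. XRCC3 shares 76.7% of its exon bases with KLC1, ERCC1 28.6% with CD3EAP and RAD54L 25.1% with LRRC41, each on the opposite strand, and the sources used here do not say whether counting used strand. RAD54B shares 59.1% of its exon bases with FSBP on the same strand, where reads cannot be assigned by strand. KLC1 did not pass (log2 fold change 0.04), while FSBP and CD3EAP rose (0.39 and 0.63) and LRRC41 fell (-0.37). With these 4 genes, RAD50 and PMS2 set aside, an alternative added after the data were seen, 28 of the remaining 39 genes rose and 3 fell (FANCF, RAD51B and XPC). Of XPC's exon bases, 23.8% are shared with the antisense gene AC093495.1, which also fell (-0.27). Genes that share under 25% of their exon bases were not set aside. Among them are FANCA (23.6% with ZNF276, which did not pass), FANCL (18.7% with VRK2, which rose by 0.39) and MSH6 (16.2% with FBXO11, which rose by 0.20). Each of these 3 overlaps is on the opposite strand. RAD51D shares 8.0% of its exon bases on the same strand with RAD51L3-RFFL, which did not pass (log2 fold change 0.17). RAD51L3-RFFL averaged 239.6 normalized counts, against 187.7 for RAD51D, and strand cannot assign the reads they share.

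In the authors' deposited table, 31 of the 45 genes were higher and 3 were lower with FOXA1 siRNA at an adjusted p under 0.05, against 19.4% and 17.6% of the 21657 genes with an adjusted p there. Both tests called 34 of the genes in the same direction. RAD51B and PMS2 were called by limma alone, with adjusted p of 0.0565 and 0.0822 in the authors' deposited table, and FANCC was close to the threshold there at 0.0476.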

How the data were processed

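Total RNA libraries were made with the NEBNext Ultra kit, per the labels' protocols. The submitters' processing notes name HISAT2, DESeq2, GRCh38 and GRCm38, without versions or roles, and the counting tool is not given in the sources used here. The deposited table holds a normalized signal per gene and sample, which is the gene's count over the sample's size factor (0.843 to 1.32), per the file headers and values. It also holds the authors' deposited log2 fold change with its standard error, a test score and 2 p-value columns, raw and adjusted. From 61862 lines, 3 broken ones were dropped. In every sample 100% of values were whole multiples of 1 step to within 0.01 read, which gave the reads behind each library. Groups came from the sample titles.

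Limma 3.58.1 in R 4.3.3 was fitted on log2(normalized count + 1) with its trend and robust options to the 18460 genes with a mean of at least 10. Fold changes are on that scale, which understates those of low genes. The step was tested on simulated data in which far fewer genes changed than were called here. That test does not cover a shift of this breadth. Gene models were from GENCODE release 29 (GRCh38). Spreads are SD over samples, and limma's are SE.

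The members and all lists were chosen with earlier results of these data known. All 45 genes are named. Values per sample are given for the 3 largest changes of each pathway and for BRCA1, BRCA2, ATM, ATR, CHEK1, CHEK2, PARP1 and the kinase and Ku genes, and were added for PALB2, RAD51B, RAD50, NBN, TDG and RAD23B after their values were seen. Companions named are up to 2 rises and 2 falls per list with a mean of at least 50. MRE11, CCNE1, the marker genes given with values and the genes that share exons or copies with members were named beyond this rule after their values were seen.

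Alternatives were pseudocounts of 0.5 and 5, no filter, a mean of at least 50, equal totals, quantile normalization, limma without those options, the replicate block, each sample left out, and a threshold of 0.01. Planned edgeR and DESeq2 runs were not run. A few companion genes are not reported here.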

Additional observations from a re-analysis of the deposited data

How the results depend on the processing

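Of the 36 called genes among the 45, 29 kept their side of the threshold under all 15 alternatives. The others were FANCC, FANCL, RBBP8, XRCC5, XRCC6, RAD51B and PMS2. Under quantile normalization XRCC5 reversed to -0.001 on the log2 scale (limma adjusted p = 0.988); the cause was not tested. Limma without its trend and robust options ended the calls of FANCC (adjusted p = 0.0525), XRCC5 (0.0809) and PMS2 (0.103), and quantile normalization that of RAD51B (0.0516). The count of the 45 genes that fell was 3 at a threshold of 0.01, and 3 with the 6 genes of shared exons or copies left out, where fewer genes were counted. Leaving out each sample in turn gave 30 to 31 that rose and 3 to 5 that fell (3 without FOXA1 siRNA replicate 2), a median log2 fold change of 0.45 to 0.48, and 49 to 51 companion genes that rose and 14 to 20 that fell. Over all genes tested, 4485 to 4746 rose and 4038 to 4434 fell, and FOXA1 stood between -2.91 and -2.72. With equal totals the median of the 45 genes was 0.37 and 33 companion genes fell, against 21 as reported. Under that scaling 5967 of all 18460 genes tested fell, against 4617 as reported. At a threshold of 0.01, 12 companion genes fell, and 3558 of all 18460 genes tested did.

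Samples of the same replicate number showed no shared deviation from their group means, with correlations of -0.01, 0.01 and -0.01. These values cannot show whether such samples were handled together. With the replicate block, 31 of the 45 genes rose and 5 fell, and 4837 of all genes tested rose and 4495 fell. The planned edgeR and DESeq2 tests were not run. Genes with a mean under 10 normalized counts were not tested, and 3 samples per group limit the precision of small differences.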
